A study of Mus musculus with 6 samples.

Results

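The tumour necrosis factor (TNF) superfamily was examined in the corneal epithelium of mice lacking Rela, through its ligands, its receptors and the adaptor proteins that carry their signals into the cell. Genes were taken by symbol from the 17866 protein-coding genes of the deposited table. The set held Tnf, Lta, Ltb, Eda, Edar, Cd40, Fas, Fasl, Tradd, Fadd and Ripk1 with every symbol that begins with Tnfsf or Tnfrsf or with Traf followed by a digit. This gave 52 genes, of which 17 encode ligands, 22 encode receptors, 7 are TNF receptor-associated factors (TRAFs), 3 encode TRAF3-interacting proteins and 3 encode the death adaptors Tradd, Fadd and Ripk1. The rule used symbols alone. Cd40lg, the ligand of Cd40, was not analysed here.

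Ligands of this family are mostly membrane-bound or shed trimers that draw together receptor chains on a neighbouring cell. Receptors with a death domain recruit Tradd or Fadd and can lead to apoptosis, whereas receptors without it bind TRAFs, which activate NF-κB and stress kinases. Rela (p65) is the main activating subunit of canonical NF-κB, and several genes of the family, Tnf and Traf1 among them, are known NF-κB targets. In skin the ectodysplasin branch, with the ligand Eda and the receptor Edar, is known for the development of hair follicles and glands, including the meibomian glands of the eyelid.

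Libraries were made from separated corneal epithelium of C57BL/6 mice at 6 months of age, 3 labelled WT and 3 labelled Rela-/-. In the study the Rela-/- mice carried floxed Rela alleles removed by Krt14-Cre, which is active in K14-expressing epithelial cells of cornea, limbus, conjunctiva and skin, and Rela in immune or stromal cells was not measured separately. The labels call the controls WT without giving their floxed or Cre alleles. Each library came from a separate biological sample. Adjusted p-values below test the genotype difference against the spread between these 3 samples per genotype. That spread was estimated for each gene with information from the other tested genes.

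Rela fell from 86.4 ± 1.21 to 14.3 ± 2.71 CPM, the normalized count at a library total of 1000000 (mean ± SD, n = 3 per genotype), so 16.5% of the WT level remained (log2 fold change -2.60, SE 0.141). Library totals lay between 20158404 and 20880347 counts, and a floor of 3 counts stood for 0.137 to 0.152 CPM, which covers counting error only. Estimated counts were whole numbers in every library for 29 members, while 23 members, Tnfrsf1b and Traf1 among them, shared some reads with other loci. The corneal identity of the tissue differed between genotypes. All 5 genes listed for corneal epithelium (Krt12, Pax6, Aldh3a1, Tkt and Krt5) fell, with a sum of 91445 to 94809 CPM in WT and 21192 to 23781 CPM in Rela-/-. Krt5, a keratin that is not confined to cornea, gave a mean of 26958 CPM of this sum in WT and 10547 CPM in Rela-/-. All 5 epidermal markers (Krt1, Krt10, Lor, Flg and Krtdap) rose, from 15.1 to 20.3 CPM to 11563 to 23959 CPM. Whether this shift in cell state had a part in the values below was not tested. In such bulk tissue, fewer cells of a type and less RNA per cell cannot be told apart.

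Of the 52 genes, 37 had enough counts for a test, and 27 of these differed between genotypes at an adjusted p of 0.05 or less (edgeR quasi-likelihood test). The same held for 62% of all tested genes, so that a count of this size was close to the background. In all, 14 members were higher in Rela-/-, against a background of 31.8% of tested genes, and 13 were lower, against 30.2%. The stricter threshold of the study, which asks for a 2-fold change and an adjusted p of at most 0.001, was met by 7 members that were higher and 2 that were lower. The background there was 19.8% in either direction, 11.6% higher and 8.24% lower. The median log2 fold change was 0.10 over the tested members and 0.0063 over all tested genes, and the median size of the change regardless of sign was 0.763 and 0.533. The groups did not overlap for 25 of the 37 tested members, against 68.7% of all tested genes.

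Both directions occurred among ligands, receptors and TRAFs. Among the 8 tested ligands 3 rose and 3 fell. Among the 17 tested receptors 9 rose and 5 fell. Of the 7 TRAFs 2 rose and 3 fell, and of the 5 tested TRAF3-interacting and adaptor genes none rose and 2 fell, Traf3ip1 and Fadd. Receptors annotated in the table with a death domain numbered 7, all tested, of which 3 rose (Tnfrsf1a, Fas and Edar) and 4 fell (Tnfrsf10b, Tnfrsf11b, Tnfrsf21 and Tnfrsf25). Of the 10 tested receptors without that annotation 6 rose and 1 fell, Tnfrsf14. These counts are to be read beside the background of 31.8% and 30.2%, and no test compared the roles with each other.

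**Figure D1:**
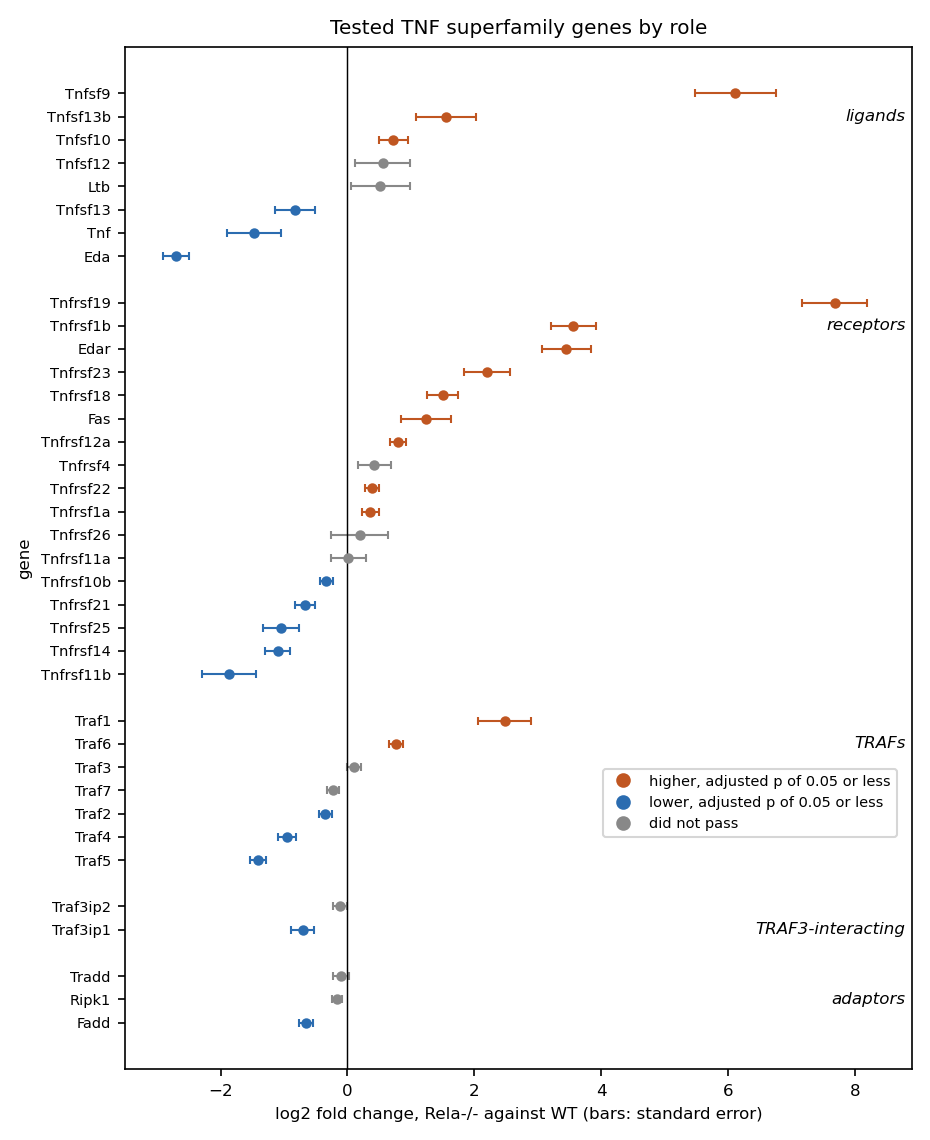
Log2 fold change of Rela-/- against WT (horizontal axis) for the 37 tested genes (vertical axis), grouped by role, where points are edgeR estimates and bars their standard errors. Receptors spread from -1.87 for Tnfrsf11b to 7.68 for Tnfrsf19, and the 5 tested TRAF3-interacting and adaptor genes all lie below 0, 2 of them past the threshold.

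In the ectodysplasin branch the ligand fell and its receptor rose. Eda (gene 13607, GRCm38 chromosome X, positions 99975589 to 100400760) encodes the ligand ectodysplasin A. It had 21.8, 20.5 and 19.5 CPM in the WT libraries and 2.08, 3.56 and 3.79 CPM in the Rela-/- libraries. Every Rela-/- library lay far below every WT library, and 15.3% of the WT level was left (log2 fold change -2.71, SE 0.206, edgeR adjusted p = 1.5e-05). Edar (gene 13608, chromosome 10, positions 58600780 to 58675696), the receptor of the A1 form of this ligand, had 0.366, 0.977 and 0.568 CPM in WT and 8.81, 7.72 and 4.53 CPM in Rela-/-. Edar was thus low in WT and rose 11.02-fold in mean CPM (log2 fold change 3.45, SE 0.387, edgeR adjusted p = 1.14e-04).

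The other ectodysplasin receptor and the Edar adaptor were also higher in Rela-/-. Eda2r, the X-linked receptor of the A2 form, is not in the set by its symbol and belongs to a wider pathway list described below. Its counts were 2, 12 and 0 in WT and 173, 257 and 189 in Rela-/-, and rose by a log2 fold change of 5.54 (SE 0.591, edgeR adjusted p = 8.72e-05). Edaradd, the death-domain adaptor that binds Edar, had 15.9, 10.2 and 5.30 CPM in WT and 23.6, 27.9 and 22.0 CPM in Rela-/- (log2 fold change 1.22, SE 0.325, edgeR adjusted p = 0.0107). The WT libraries were widely spread for Edaradd, but the groups did not overlap.

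Tnfrsf19 (gene 29820, chromosome 14, positions 60963834 to 61046855), also known as Troy, is a TRAF-binding receptor related to Edar and known from hair follicles and stem cells of other epithelia. Its counts were 0, 0 and 5 in WT and 339, 402 and 285 in Rela-/-, the largest rise of any tested member (log2 fold change 7.68, SE 0.516, edgeR adjusted p = 7.88e-06). The size of this fold rested on the 5 counts of WT replicate 3. Without that library the WT total was 0, and the rise was 248-fold against a floor of 3 counts over the other WT libraries. Traf6, the TRAF that couples Edar signalling and the Toll-like and interleukin-1 receptors to NF-κB, rose from 44.7, 47.5 and 42.8 CPM to 80.3, 65.0 and 83.9 CPM (log2 fold change 0.76, SE 0.114, edgeR adjusted p = 5.31e-04). Tab2 and Map3k7, which act after Traf6, did not pass the test (log2 fold changes -0.02 and 0.11, edgeR adjusted p = 0.912 and 0.300), and Tab1 of the same complex fell, as given below. Epidermal markers rose in the same libraries, as given above, and their part in the rise of Edar, Tnfrsf19 and Traf6 was not tested.

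**Figure D2:**
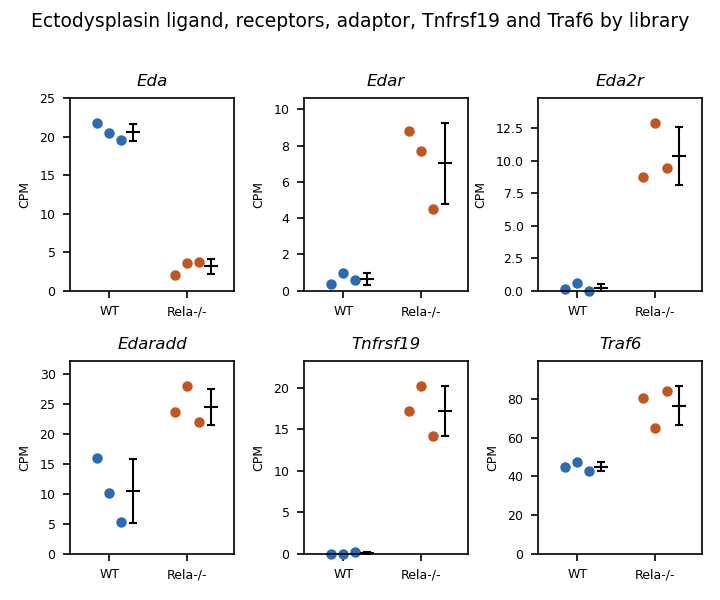
CPM (vertical axes, each from 0) in the 3 WT and 3 Rela-/- libraries, with points for single libraries and black marks for mean ± SD. Eda fell from a mean of 20.6 to 3.14 CPM, while Edar, Eda2r, Edaradd, Tnfrsf19 and Traf6 were higher in every Rela-/- library than in any WT library.

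To set the opposite changes of this branch beside the DNA of the genes concerned, the bases before the transcription start were read from RefSeq promoters (GRCm38.p6). In the lines that follow, each sequence is the 150 bases upstream of the start on the gene's own strand, written 5′ to 3′, and capitals mark CG dinucleotides, the sites of DNA methylation. Eda lies at chrX:99975456-99975605 on the plus strand, Edar at chr10:58675697-58675846 on the minus strand and Tnfrsf19 at chr14:61046856-61047005 on the minus strand.
Eda: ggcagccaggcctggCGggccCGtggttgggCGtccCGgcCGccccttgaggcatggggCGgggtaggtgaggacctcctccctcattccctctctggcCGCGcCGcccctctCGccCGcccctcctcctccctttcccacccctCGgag
Edar: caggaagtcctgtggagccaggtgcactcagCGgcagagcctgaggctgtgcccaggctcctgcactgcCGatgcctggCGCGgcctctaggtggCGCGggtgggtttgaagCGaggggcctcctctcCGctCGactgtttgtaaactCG
Tnfrsf19: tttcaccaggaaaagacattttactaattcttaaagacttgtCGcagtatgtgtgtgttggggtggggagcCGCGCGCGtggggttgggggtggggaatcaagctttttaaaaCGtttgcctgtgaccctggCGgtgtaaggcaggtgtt
These stretches held 12, 10 and 7 CG dinucleotides, and the full 250 bases upstream held 19, 11 and 9. The median over all promoter entries was 6 in 250 bases. None of the promoter windows of these 3 genes held a match to the κB motif, the DNA element that NF-κB binds. DNA farther from the start was not searched.

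Tnf itself was lower in Rela-/-, but with overlapping groups. Tnf (gene 21926, chromosome 17, positions 35199367 to 35202007), the founding inflammatory cytokine of the family, had 2.34, 5.58 and 7.15 CPM in WT and 1.67, 1.25 and 2.49 CPM in Rela-/-. The lowest WT library lay below the highest Rela-/- library. The log2 fold change was -1.47 (SE 0.426, edgeR adjusted p = 0.0158), and the call was lost without WT replicate 3 (0.0615), without Rela-/- replicate 1 (0.0515) and without Rela-/- replicate 2 (0.0549).

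The receptors of Tnf rose. Tnfrsf1a, the broadly expressed death-domain receptor, had 132, 174 and 138 CPM in WT and 207, 169 and 194 CPM in Rela-/-. The groups overlapped, since WT replicate 2 lay above the lowest Rela-/- library, and the rise was small (log2 fold change 0.36, SE 0.131, edgeR adjusted p = 0.0403). This call was lost in 10 of 17 alternative analyses, among them the runs without WT replicate 1 (0.1225), without WT replicate 3 (0.1067), without Rela-/- replicate 1 (0.1061) and without Rela-/- replicate 3 (0.0957). Tnfrsf1b, the receptor without a death domain that is best known from immune cells, had 0.286, 0.147 and 0.287 CPM in WT and 2.41, 2.47 and 3.55 CPM in Rela-/-. It rose 11.7-fold in mean CPM with no overlap (log2 fold change 3.56, SE 0.356, edgeR adjusted p = 6.18e-05).

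The neighbours of Tnf on chromosome 17 gave other values. Ltb, which encodes the membrane partner of lymphotoxin, lies 3.062 kb from Tnf. Its groups overlapped, with 0.504, 0.837 and 0.473 CPM in WT and 0.760, 0.451 and 1.40 CPM in Rela-/- (log2 fold change 0.52, SE 0.466, edgeR adjusted p = 0.36). Lta, at 1.158 kb from Tnf, had counts of 7, 7 and 2 in WT and of 2, 1 and 9 in Rela-/- and was too low for a test. The lymphotoxin β receptor Ltbr, from the wider pathway list, fell slightly, from 68.9, 76.6 and 69.0 CPM to 59.5, 49.3 and 56.3 CPM (log2 fold change -0.38, SE 0.1002, edgeR adjusted p = 0.0104).

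**Figure D3:**
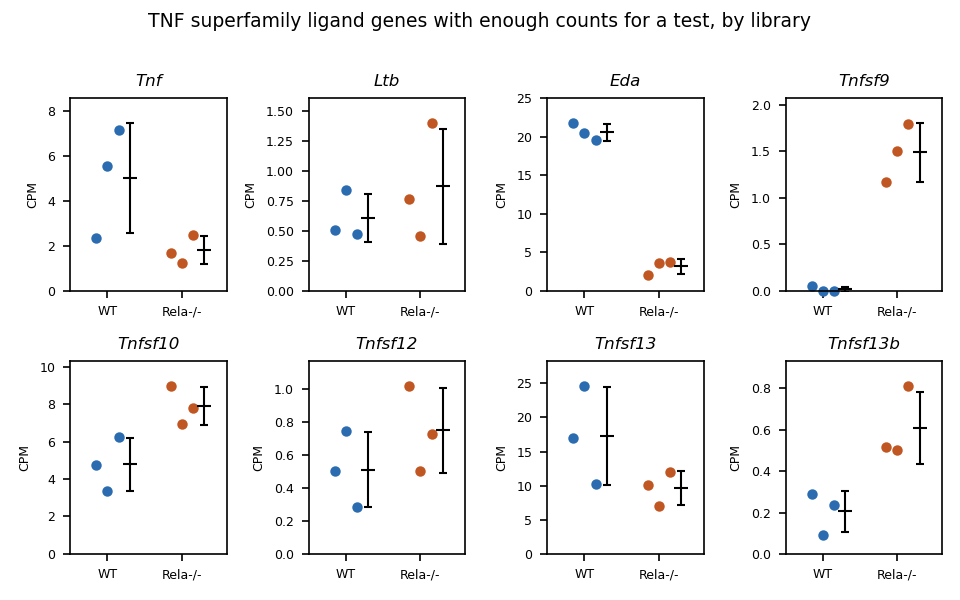
CPM (vertical axes, each from 0) of the 8 tested ligand genes in the 3 WT and 3 Rela-/- libraries, with points for single libraries and black marks for mean ± SD. Eda, Tnfsf9, Tnfsf10 and Tnfsf13b show groups that do not overlap, whereas the groups of Tnf, Ltb, Tnfsf12 and Tnfsf13 overlap.

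Genes of the death-inducing branch moved in both directions. Tnfsf10, the ligand TRAIL, rose from 4.73, 3.38 and 6.23 CPM to 8.95, 6.95 and 7.79 CPM (log2 fold change 0.72, SE 0.229, edgeR adjusted p = 0.0234), a call that was lost without WT replicate 1 (0.0628), Rela-/- replicate 1 (0.0774) or Rela-/- replicate 3 (0.0509). Its death receptor Tnfrsf10b fell from 16.7, 18.1 and 17.0 CPM to 13.9, 13.3 and 13.9 CPM (log2 fold change -0.34, SE 0.101, edgeR adjusted p = 0.0185). The fall of Tnfrsf10b was small and was lost with a correction for gene length (0.0978), without WT replicate 2 (0.0632) and without Rela-/- replicate 2 (0.0528).

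Tnfrsf22 and Tnfrsf23, which encode mouse decoy receptors of TRAIL, rose. Tnfrsf23 had 0.881, 2.13 and 1.80 CPM in WT and 4.59, 8.87 and 8.67 CPM in Rela-/- (log2 fold change 2.202, SE 0.367, edgeR adjusted p = 9.76e-04). Tnfrsf22 was more abundant in WT and changed less, from 16.9, 18.1 and 16.6 CPM to 24.8, 21.6 and 20.97 CPM (log2 fold change 0.38, SE 0.109, edgeR adjusted p = 0.0146). Tnfrsf22, Tnfrsf23 and Tnfrsf26 are adjacent near-copies on chromosome 7, the first pair overlap in the annotation, and their estimated counts were not whole, so reads were divided between loci and the split among them is uncertain. The call of Tnfrsf22 was lost when libraries were scaled by total counts alone (0.0509). Tnfrsf26 had 0.421, 0.714 and 0.435 CPM in WT and 0.507, 0.927 and 0.349 CPM in Rela-/- (log2 fold change 0.19, SE 0.447, edgeR adjusted p = 0.728).

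Fas, the death receptor of Fasl, was low in this tissue, with 0.916, 0.791 and 0.284 CPM in WT and 1.57, 1.71 and 1.45 CPM in Rela-/-. It rose with no overlap (log2 fold change 1.23, SE 0.391, edgeR adjusted p = 0.0233), and the call was lost with a length correction (0.0522), without Rela-/- replicate 1 (0.0556) and without Rela-/- replicate 2 (0.0650). Fasl had counts of 0, 1 and 0 in WT and of 2, 4 and 1 in Rela-/-, a ratio of 7.55 with a 95% counting interval of 0.97 to 340, so no difference was detectable at this depth.

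Tnfrsf21, a death-domain receptor known as DR6 and among the most abundant receptors of the set, fell from 78.7, 113 and 92.5 CPM to 66.8, 49.1 and 62.7 CPM (log2 fold change -0.67, SE 0.160, edgeR adjusted p = 0.00629). Tnfrsf25, the death-domain receptor DR3, fell from 1.33, 2.05 and 1.94 CPM to 0.912, 0.803 and 0.847 CPM (log2 fold change -1.05, SE 0.280, edgeR adjusted p = 0.0109). In both genes each Rela-/- library lay below each WT library. Tnfsf15, the ligand of Tnfrsf25, had 0, 1.03 and 3.02 estimated counts in WT and 8.16, 3.25 and 6.59 in Rela-/-, too few for a test. The adaptor Fadd, which links death receptors to caspase-8, fell from 26.0, 23.5 and 24.1 CPM to 17.4, 14.3 and 15.1 CPM (log2 fold change -0.65, SE 0.113, edgeR adjusted p = 0.0012).

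Osteoprotegerin, TWEAK receptor and HVEM genes gave further changes in receptors found on epithelia. Tnfrsf11b, which encodes osteoprotegerin, a soluble decoy of the bone-resorbing ligand Tnfsf11, had 12.6, 11.6 and 10.8 CPM in WT and 1.92, 6.02 and 1.64 CPM in Rela-/-. It fell with no overlap (log2 fold change -1.87, SE 0.421, edgeR adjusted p = 0.00483), but Rela-/- replicate 2 stood apart from the other Rela-/- libraries, and without it the log2 fold change was -2.71. Tnfsf11 had no count in WT and 3, 3 and 2 counts in Rela-/-, a ratio of 2.88 against a floor of 3 counts over the WT group. This ratio leaves out the counting error of the Rela-/- counts and is no lower bound. The signalling receptor of Tnfsf11, Tnfrsf11a, had 2.18, 2.75 and 2.17 CPM in WT and 2.997, 2.63 and 1.57 CPM in Rela-/- (log2 fold change 0.01, SE 0.278, edgeR adjusted p = 0.97).

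Tnfrsf12a, the injury-induced receptor of TWEAK, rose from 12.5, 14.9 and 16.4 CPM to 24.7, 23.5 and 27.7 CPM (log2 fold change 0.79, SE 0.131, edgeR adjusted p = 9.07e-04). With a correction for gene length the value was 0.24 and no longer passed (0.0950). The TWEAK gene Tnfsf12 was low, with 0.504, 0.742 and 0.284 CPM in WT and 1.01, 0.502 and 0.727 CPM in Rela-/- (log2 fold change 0.55, SE 0.438, edgeR adjusted p = 0.299). Tnfrsf14 (HVEM), a receptor of the ligand Tnfsf14 that is found on both lymphocytes and epithelia, fell from 5.28, 4.51 and 5.71 CPM to 2.22, 2.22 and 2.80 CPM (log2 fold change -1.10, SE 0.197, edgeR adjusted p = 0.00145). Tnfsf14 had no count in WT and 2 counts in every Rela-/- library, a ratio of 2.16 against the same floor. With so few Rela-/- counts this ratio is no lower bound either.

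Tnfsf13 (APRIL), a ligand for B-lineage cells, lies 0.686 kb from Tnfsf12 and overlaps the annotated joint locus Tnfsfm13. It had 17.0, 24.5 and 10.2 CPM in WT and 10.1, 7.02 and 11.98 CPM in Rela-/- with overlapping groups (log2 fold change -0.83, SE 0.314, edgeR adjusted p = 0.0462). The call was lost in 9 of 17 alternatives, among them those without WT replicate 1 (0.0907), WT replicate 2 (0.158), Rela-/- replicate 1 (0.0940) and Rela-/- replicate 2 (0.138). Counts of Tnfsf13, Tnfsf12 and Tnfsfm13 were not whole, so reads were shared among them.

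**Figure D4:**
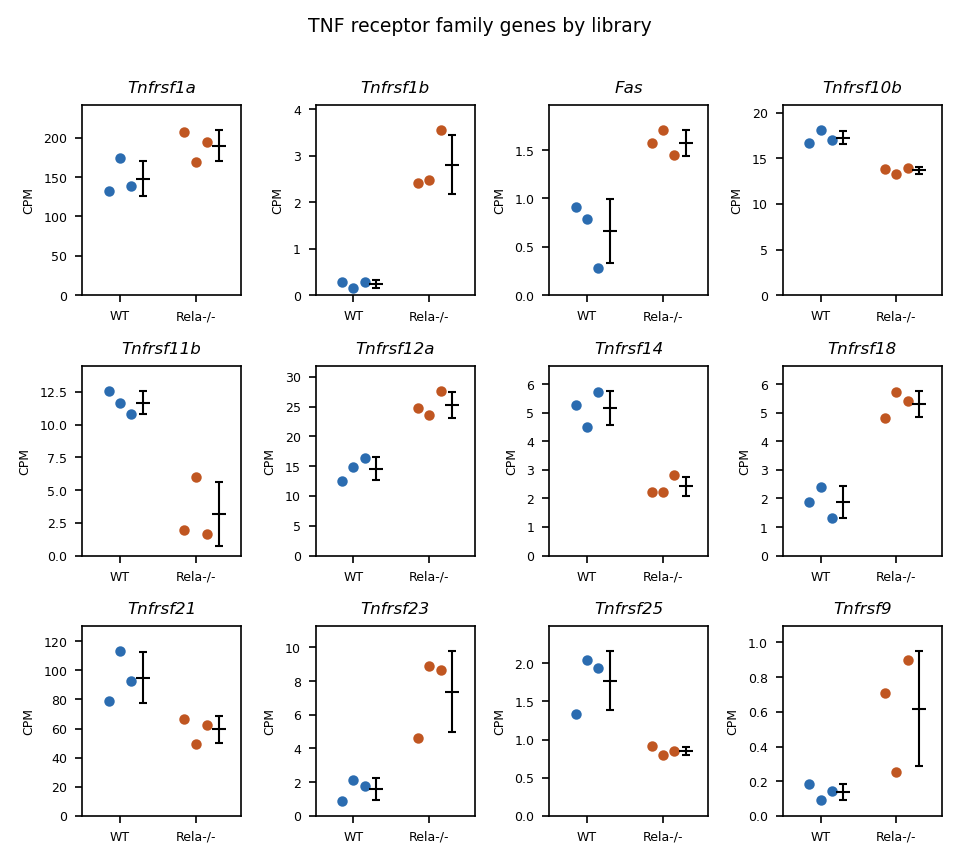
CPM (vertical axes, each from 0) of 12 receptor genes in the 3 WT and 3 Rela-/- libraries, with points for single libraries and black marks for mean ± SD. Tnfrsf1b rose from a mean of 0.240 to 2.81 CPM and Tnfrsf14 fell from 5.17 to 2.42 CPM without overlap, Rela-/- replicate 2 lies apart in Tnfrsf11b and Tnfrsf9, and Tnfrsf9 had too few counts for a test.

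Several members best known from lymphocytes and myeloid cells were low in WT and higher in Rela-/-. Others did not share this direction. Tnfrsf14 and Tnfsf13, named above with lymphocytes or B-lineage cells, fell, the latter with overlapping groups. Tnfsf9, a ligand on antigen-presenting cells that costimulates T cells, had counts of 1, 0 and 0 in WT and of 23, 30 and 36 in Rela-/- (log2 fold change 6.12, SE 0.640, edgeR adjusted p = 7.79e-05). The ratio of counts was 96.0, with a 95% counting interval of 16.8 to 3834. Without WT replicate 1 the rise was 21.2-fold against a floor of 3 counts over the other WT libraries. Its receptor Tnfrsf9, found on activated T cells, had counts of 4, 2 and 3 in WT and of 14, 5 and 18 in Rela-/-, with no overlap but too few for a test.

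Tnfrsf18 (GITR), known from regulatory T cells, rose from 1.88, 2.42 and 1.33 CPM to 4.81, 5.72 and 5.43 CPM (log2 fold change 1.501, SE 0.244, edgeR adjusted p = 8.52e-04). Tnfrsf4, its neighbour at 8.876 kb on chromosome 4 and another T cell costimulator, had 1.05, 1.35 and 1.56 CPM in WT and 2.03, 1.81 and 1.49 CPM in Rela-/- (log2 fold change 0.42, SE 0.265, edgeR adjusted p = 0.193). Tnfsf13b (BAFF), the survival factor of B cells made by myeloid cells, rose from 0.287, 0.0930 and 0.237 CPM to 0.515, 0.502 and 0.810 CPM (log2 fold change 1.55, SE 0.474, edgeR adjusted p = 0.0199), but the call was lost in DESeq2 (0.0833), without WT replicate 2 (0.0668) and without Rela-/- replicate 3 (0.0815). Traf1, an NF-κB-induced TRAF of activated leukocytes that lacks the RING domain, had 0.137, 0.171 and 0.332 CPM in WT and 1.02, 1.11 and 1.59 CPM in Rela-/- (log2 fold change 2.48, SE 0.413, edgeR adjusted p = 9.85e-04). All Rela-/- libraries lay above all WT libraries in Tnfrsf18, Tnfsf13b and Traf1.

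Of the 15 members with too few counts for a test, 11 were higher in every Rela-/- library than in any WT library and none was lower in every one, with no library above 18 counts. Of all 4561 genes too low for a test, the same held for 22.1% in the higher and 5.2% in the lower direction, which is given as a description, since levels were not matched. Traf3ip3, known from lymphocyte development, had no count in WT and 8.28, 5.54 and 15.3 estimated counts in Rela-/-, a ratio of 10.4 against a floor of 3 counts over the WT group. Cd40, the receptor on antigen-presenting cells, had no count in WT and 2, 2 and 6 counts in Rela-/-, a ratio of 3.60 against that floor. Both ratios leave out the counting error of the Rela-/- counts. The others were Tnfsf8, Tnfsf4, Tnfsf18, Tnfsf15, Tnfsf11, Tnfsf14, Fasl, Lta, Tnfsfm13, Tnfrsf9, Tnfrsf13b, Tnfrsf13c and Tnfrsf17.

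Markers of immune and other cells moved in the same libraries. Of 8 T cell markers, the 5 with enough counts for a test all rose, and the sum of all 8 went from 1.84 to 2.08 CPM in WT to 16.1 to 20.6 CPM in Rela-/-, of which Cd5 gave 11.9 to 13.1 CPM. Cd2 was at 0 in every WT library. Of 6 Langerhans or dendritic cell markers the 5 tested rose, and the sum of all 6 went from 7.37 to 16.7 CPM to 86.5 to 160 CPM, lowest in Rela-/- replicate 2, with none at 0 throughout WT. Of 7 macrophage markers 4 rose (Adgre1, Cd14, Csf1r and Lyz2) and Itgam fell, and the sum, made up mostly by Itgam, was 269 to 339 CPM in WT and 190 to 267 CPM in Rela-/-. Of the B cell markers, Cd79a and Ms4a1 were at 0 in every WT library and Cd79b did not pass the test. In Rela-/- Cd79a had counts of 1, 2 and 1 and Ms4a1 of 0, 0 and 1. Neutrophil markers were mixed. Csf3r rose (log2 fold change 1.13, edgeR adjusted p = 0.00757), while Ly6g fell with overlapping groups (-1.80, edgeR adjusted p = 0.0291). Elane was too low for a test. Among other cell types, the 3 goblet cell markers summed to 0.146 to 0.330 CPM in WT and 4.31 to 21.3 CPM in Rela-/-, with Muc5ac and Spdef called higher, and Muc5ac and Tff1 at 0 in WT. Of the endothelial markers only Pecam1 had enough counts for a test, and it rose. Kdr was at 0 in WT, with counts of 0, 1 and 2 in Rela-/-. Tek had counts of 0, 1 and 1 in WT and of 1, 2 and 0 in Rela-/-. Of 6 keratocyte or fibroblast markers 3 rose, Dcn among them, and Pdgfra fell. The sum of all 6 was 12.3 to 16.1 CPM in WT and 7.02 to 10.99 CPM in Rela-/-. Lum was at 0 in WT, with counts of 2, 4 and 1 in Rela-/-. Of 4 mast cell markers Kit and Cpa3 fell. The sum of all 4, mostly Kit, was 246 to 367 CPM in WT and 25.1 to 32.3 CPM in Rela-/-. Cma1 and Mcpt4 were at 0 in WT, with counts of 0, 1 and 0 and of 2, 3 and 2 in Rela-/-. Of 4 basal epithelial markers Krt14, the keratin whose promoter drives the Cre, rose (log2 fold change 4.15) and Itga6 fell (-0.47). Krt15 and Trp63 did not pass the test. The part of these cells in the higher values of Tnfsf9, Tnfrsf1b, Tnfrsf18, Tnfsf13b, Traf1 and the members too low for a test was not tested.

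The TRAFs did not move as a group. Traf5, which serves lymphotoxin and CD40-type receptors, fell from 58.3, 47.5 and 53.7 CPM to 18.8, 18.3 and 22.7 CPM, the largest fall of a TRAF (log2 fold change -1.42, SE 0.124, edgeR adjusted p = 3.2e-05). Traf4, the TRAF known from epithelial junctions and morphogenesis, fell from 42.6, 44.8 and 54.5 CPM to 21.5, 22.8 and 28.8 CPM (log2 fold change -0.96, SE 0.144, edgeR adjusted p = 5.65e-04). Both were separated between genotypes by a wide gap. Traf2, the main TRAF of the Tnfrsf1a complex, fell less, from 24.0, 25.2 and 24.2 CPM to 17.7, 18.8 and 21.03 CPM (log2 fold change -0.35, SE 0.105, edgeR adjusted p = 0.0183), and lost its call with a length correction (0.0858) and without WT replicate 2 (0.0533).

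Traf3, a negative regulator of non-canonical NF-κB, had 30.8, 27.9 and 26.8 CPM in WT and 32.6, 27.0 and 31.9 CPM in Rela-/- (log2 fold change 0.10, SE 0.111, edgeR adjusted p = 0.456). With a correction for gene length it was called higher, at 0.38 (0.0125). Traf7 had 103, 110 and 93.1 CPM in WT and 93.4, 80.8 and 86.2 CPM in Rela-/- (log2 fold change -0.23, SE 0.0974, edgeR adjusted p = 0.0675), and was called lower when libraries were scaled by total counts (0.0174) and without Rela-/- replicate 1 (0.0380). Neither gene passed in the analysis reported here. Summed over the 7 genes and expressed per length, TRAFs stood at 104, 101 and 97.4 FPKM (fragments scaled by gene length and library total) in WT and 70.9, 66.1 and 74.4 FPKM in Rela-/-.

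For the 3 death adaptors the median size of the log2 fold change was 0.164, beside 1.05 for the tested receptors, a difference that was not tested. Tradd, the platform adaptor of Tnfrsf1a, had 17.7, 20.6 and 17.0 CPM in WT and 19.2, 17.2 and 15.05 CPM in Rela-/- (log2 fold change -0.10, SE 0.131, edgeR adjusted p = 0.518). Ripk1, the kinase that decides between survival and death signalling at this receptor, had 42.8, 41.2 and 41.9 CPM in WT and 36.7, 37.8 and 37.9 CPM in Rela-/- (log2 fold change -0.16, SE 0.0812, edgeR adjusted p = 0.111). The Ripk1 groups did not overlap, and with scaling by total counts the gene was called lower (0.0315). Traf3ip1, a cilium protein that also binds TRAF3, fell from 7.04, 7.91 and 9.73 CPM to 4.28, 5.23 and 5.64 CPM (log2 fold change -0.71, SE 0.181, edgeR adjusted p = 0.00906). Traf3ip2, the adaptor of the interleukin-17 receptor, had 41.5, 46.4 and 41.1 CPM in WT and 44.5, 37.6 and 37.0 CPM in Rela-/- (log2 fold change -0.12, SE 0.106, edgeR adjusted p = 0.365).

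**Figure D5:**
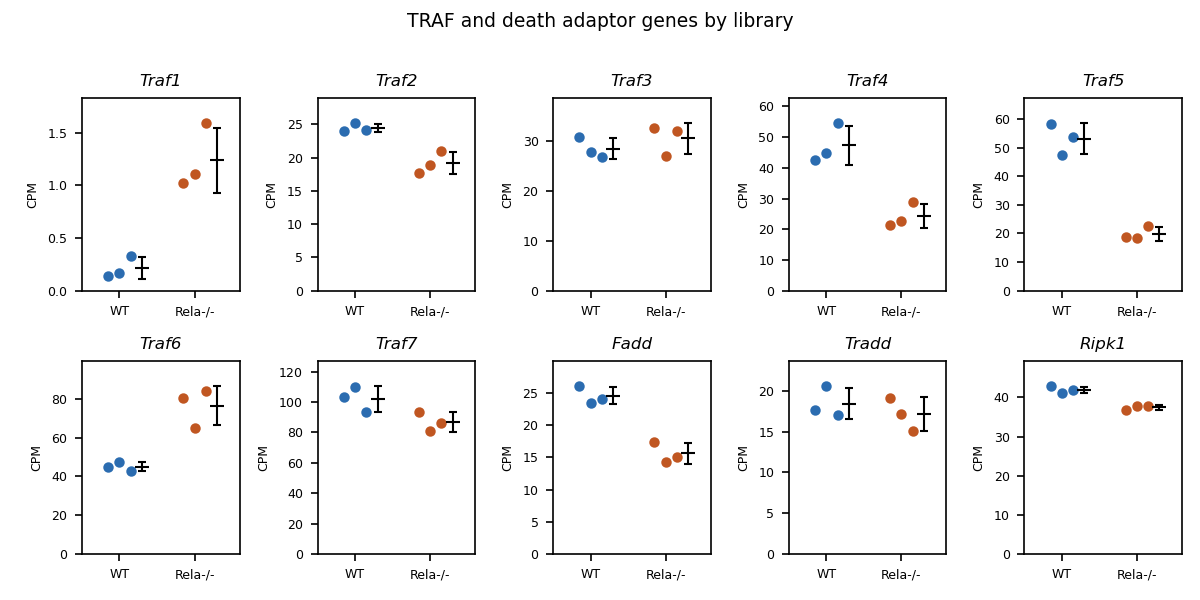
CPM (vertical axes, each from 0) of the 7 TRAF and 3 death adaptor genes in the 3 WT and 3 Rela-/- libraries, with points for single libraries and black marks for mean ± SD. Traf1 and Traf6 lie above WT in every Rela-/- library, Traf2, Traf4, Traf5, Fadd and Ripk1 below it, although Ripk1 did not pass the threshold, and the groups of Traf3, Traf7 and Tradd overlap.

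Levels of different genes were compared only per length, on the FPKM scale. Tnfrsf1a led the set in both genotypes, at 71.0 ± 10.8 FPKM in WT and 84.9 ± 7.19 FPKM in Rela-/- (mean ± SD, n = 3 per genotype). Traf7 came next at 39.1 and 31.1 FPKM. In WT it was followed by Tnfrsf21 at 26.8 FPKM, Traf5 at 25.6 FPKM, Traf3ip2 at 18.5 FPKM, Traf4 at 16.1 FPKM and Tnfrsf12a at 15.9 FPKM. The SDs of Tnfrsf21 and Traf5 (4.81 and 2.88 FPKM) exceeded the gap between them, and so did those of Traf4 and Tnfrsf12a (1.83 and 1.81 FPKM). In Rela-/-, Tnfrsf12a moved up to rank 3 at 25.9 FPKM and Traf6 from rank 13 to rank 6 at 12.1 FPKM. Traf5 moved down to rank 9 at 8.94 FPKM, and Eda from rank 15 at 4.27 FPKM to rank 30 at 0.610 FPKM. Summed receptor levels were 124, 156 and 130 FPKM in WT and 162, 147 and 159 FPKM in Rela-/-, with overlap, and summed ligand levels were 19.2, 25.5 and 16.7 FPKM against 11.7, 9.76 and 15.1 FPKM. Tnfsf13, whose groups overlap, gave a mean of 10.7 FPKM in WT, and without Tnfsf13 and Eda the ligand sums overlapped, at 3.88, 6.04 and 6.55 FPKM against 5.57, 4.91 and 7.49 FPKM. All members together took 0.0812%, 0.0896% and 0.0791% of the counts in WT and 0.0765%, 0.0699% and 0.0757% in Rela-/-.

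A wider list of 49 pathway genes outside the symbol rule was examined for context, of which 48 were in the table and 47 were tested. Of these 8 rose and 15 fell, against the background of 31.8% and 30.2%. The 12 genes of the ubiquitin machinery, which builds and trims the ubiquitin chains on TRAF and Ripk1 complexes, held 7 falls and 1 rise. The rise, of Otulin (log2 fold change 0.35, edgeR adjusted p = 0.0435), was lost in 12 of 17 alternatives. Among the falls were Xiap, a caspase inhibitor with ubiquitin ligase activity (98.0 ± 2.58 to 53.8 ± 2.05 CPM, log2 fold change -0.86, edgeR adjusted p = 4.2e-05), and the deubiquitinase Cyld (88.8 ± 2.64 to 48.7 ± 2.85 CPM, log2 fold change -0.87, edgeR adjusted p = 5.53e-05). Rnf31 and Sharpin, subunits of the ligase that makes linear chains, fell by 0.96 and 0.51 on the log2 scale (edgeR adjusted p = 2.53e-04 and 0.00181). The third subunit, Rbck1, did not pass, at a log2 fold change of -0.15 (edgeR adjusted p = 0.168).

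Of the 13 kinase-complex genes 3 fell and none rose. Map3k5 (ASK1), the stress kinase downstream of Traf2, had the smallest adjusted p of the list and fell from 92.4 ± 10.2 to 23.6 ± 2.39 CPM (log2 fold change -1.97, SE 0.121, edgeR adjusted p = 4.94e-06). Tab1, a partner of the kinase Map3k7, fell by 0.46 on the log2 scale (edgeR adjusted p = 0.00348). Chuk was the third, with a call that was lost in 6 of 17 alternatives. In the death and necroptosis genes Mlkl rose and Bid fell, calls that were lost in 4 and 7 of 17 alternatives. Of the 2 shedding proteases Adam10 rose. Of the 7 NF-κB genes 2 rose (Nfkbia and Nfkbie, the latter lost in 11 of 16 alternatives) and 1 fell, Nfkb2, the precursor used by non-canonical signalling (log2 fold change -0.63, edgeR adjusted p = 0.00539).

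Of the 7 other family genes 6 were in the table and 5 were tested. Eda2r, Edaradd and Relt rose and Ltbr and Ngfr fell. Ngfr, the neurotrophin receptor of the family and a known marker of basal and limbal epithelium, fell from 77.2, 66.2 and 55.3 CPM to 16.7, 10.7 and 18.2 CPM (log2 fold change -2.12, SE 0.207, edgeR adjusted p = 5.42e-05). Relt, an orphan receptor found in haematopoietic tissue, had counts of 1, 8 and 3 in WT and of 21, 28 and 17 in Rela-/- (log2 fold change 2.53, SE 0.550, edgeR adjusted p = 0.00398).

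Since κB elements are where NF-κB acts on DNA, RefSeq promoters (GRCm38.p6, 250 bases before to 50 after each start) were searched for the 10-base κB motif on both strands. Promoter entries were found for 42 of the 52 members. Of these 4 genes (9.52%) held a match, against 2581 of 27025 genes (9.55%) in the whole promoter table. The members with a match were Ltb and Traf3, which did not pass the test, Tnfrsf25, which fell, and Tnfrsf9, which was too low for a test. The motif was GGGRNNYYCC, with R for A or G, Y for C or T and N for any base. A match is a description of the letters, and binding was not measured. Elements outside this window or with other letters were not searched for, so a gene without a match may still hold a κB element. Tnf and Traf1, named above as known NF-κB targets, held no match in this window. Tnfrsf25 and Tnfrsf9 each had a further promoter entry, with a start upstream of the matching one, that held no match. The 100 bases upstream of the start of each matching entry are shown on the plus strand, 5′ to 3′. The match is in capitals, to let the elements be compared. They lie at chr17:35194407-35194506 for Ltb, chr12:111166270-111166369 for Traf3, chr4:152116243-152116342 for Tnfrsf25 and chr4:150927899-150927998 for Tnfrsf9.
Ltb: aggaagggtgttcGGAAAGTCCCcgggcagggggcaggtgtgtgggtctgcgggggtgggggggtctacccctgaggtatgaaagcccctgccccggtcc
Traf3: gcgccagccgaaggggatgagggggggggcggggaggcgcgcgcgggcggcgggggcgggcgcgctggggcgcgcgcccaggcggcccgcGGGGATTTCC
Tnfrsf25: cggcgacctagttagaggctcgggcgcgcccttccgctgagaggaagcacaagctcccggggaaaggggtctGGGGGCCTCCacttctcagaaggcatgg
Tnfrsf9: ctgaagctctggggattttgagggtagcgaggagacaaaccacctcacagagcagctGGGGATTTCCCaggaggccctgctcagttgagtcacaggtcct
In Tnfrsf9 a pair of matches overlap by all but their outer base, and Tnfrsf25 holds a further match 37 bases after the start used here. The median number of CG dinucleotides in the 250 upstream bases was 8.75 for the 12 members that rose and 12 for the 11 that fell. It was 18.25 for the 6 that did not pass and 5 for the 13 that were too low for a test, and the ranges of these groups overlapped.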

How the data were processed

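Bulk RNA-seq of 6 libraries (3 WT, 3 Rela-/-) was used. According to the methods, ribosomal RNA was depleted and single-end reads were sequenced on a BGISEQ-500, whereas the labels name an Illumina kit. The authors aligned reads with Bowtie2 2.2.5 and deposited RSEM 1.2.12 expected counts, FPKM and TPM per gene and library. RSEM divides reads that fit several genes, and whether counting used strand is not given in the sources used here, so overlapping or near-identical genes may share reads. The labels name mm9, but 99.55% of 17747 matched genes overlapped their RefSeq GRCm38.p6 position. The deposited TPM values served only to check that libraries sum to 1000000. Columns of the authors' own comparison (fold changes and adjusted p-values) were not used.

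Expected counts were rounded, and genotype was tested by the quasi-likelihood functions of edgeR 4.0.16 (R 4.3.3) after filterByExpr and TMM scaling. P-values were adjusted after Benjamini and Hochberg over 13305 genes. The biological coefficient of variation was 15.44%. CPM were scaled by TMM factors. The test was tried on simulated data. Floors used 3 counts over the WT group, and ratios against them leave out the counting error of the Rela-/- counts. Counting intervals were at 95%.

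The members, gene lists and tests were chosen with earlier results of these data known. Named were all called members, ligand and receptor pairs, the TRAFs and adaptors, and at most 10 called pathway genes by smallest adjusted p. Edaradd, Rbck1, Tab2, Map3k7, the untested members, and Otulin, Chuk, Mlkl, Bid, Adam10, Nfkbia and Nfkbie were named after their values were seen, as was the death-domain annotation (InterPro or Pfam, from the deposited table). The values of some listed genes are not reported here. The 17 alternatives were scaling by RLE factors or by total counts, DESeq2 1.42.0, no filter, a minimum mean count of 50, a robust dispersion, limma 3.58.1 on log2(FPKM + 1) and log2(FPKM + 0.1), a replicate block, a length correction (loess offset on effective length), both together, and leaving out each library.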

Additional observations from a re-analysis of the deposited data

How the results depend on the processing

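Of the 27 called members, 17 kept their call in every one of the 17 alternatives that tested them, and 10 lost it in at least 1 (Fas, Tnfrsf10b, Tnfrsf12a, Tnfrsf1a, Tnfrsf22, Tnfsf10, Tnfsf13b, Tnfsf13, Tnf and Traf2). Of the 10 members that were not called, 4 gained a call in at least 1 (Ripk1, Tradd, Traf3 and Traf7). With a mean count of at least 50, only 26 members were tested. There 9 members instead of 14 were called higher, and 5 instead of 9 were at the study threshold. The median log2 fold change of the tested members was 0.41 in DESeq2 and 0.38 without a filter, where all 52 members entered, and -0.17 with a mean count of at least 50. Leaving out each library in turn gave 11 to 14 members called higher, 10 to 13 called lower, 6 to 7 at the study threshold and a median of 0.05 to 0.28. It gave 5 to 9 pathway genes called higher instead of 8, with 5 without WT replicate 1, WT replicate 3 or Rela-/- replicate 2, and 10 to 14 called lower instead of 15. Scaling alone moved the log2 median of all genes by 0.0098 with RLE factors and by -0.0948 with total counts, and DESeq2, which also had no filter, by 0.0993.

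Replicate numbers are shared by both genotypes. Deviations of each gene from its genotype mean were correlated between same-numbered libraries at 0.034, -0.010 and 0.061. Pairs with different numbers ran from -0.159 to 0.123, so no pairing by number was seen. With the replicate block 8083 instead of 8253 genes were called, and among members the calls of Tnfrsf1a (log2 fold change 0.37, adjusted p = 0.0657, edgeR) and Tnfsf13 (-0.77, adjusted p = 0.102, edgeR) were lost. For genes near the floor of 3 counts, depth limits what can be detected.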
